A study of Mus musculus with 9 samples.

Results

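*KD2* is a clone of HC11 cells in which *Vangl2*, a core gene of planar cell polarity, was targeted by CRISPR/Cas9, and it was compared here with the parental HC11 cells, *WT*. Set against its parent, the line held more RNA of interferon-stimulated genes, of class I antigen presentation and of chemokines. It held less RNA of cornified envelope proteins, of several junction proteins and of a set of enzymes and carriers of amino acids. Mesenchymal and matrix genes changed both ways, with more of them called higher than lower. The comparison took the 3 cultures labelled *KD2* and the 3 labelled *WT*, 6 of the 9 cultures of the series; the other 3 belong to *KD1*, a second edited line, whose values are given only beside those of *KD2*. HC11 is a mammary epithelial line from BALB/c mice that can be led to make milk proteins, and RNA with a poly(A) tail was sequenced from undifferentiated cells grown until nearly confluent.

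All the cultures had the same medium, with 10% fetal bovine serum, 5 µg/mL insulin and 10 ng/mL epidermal growth factor. None had the prolactin and dexamethasone that, together with insulin, start differentiation. The *WT* cultures were unedited. The *KD2* line came from 1 colony after transfection with Cas9, a guide against *Vangl2* and a repair template that carries stop codons, and the study's immunoblots showed a diminished rather than an absent protein. The labels call both edited lines knockouts. A clone made without the *Vangl2* guide was not analysed here, so the edit and the choice of 1 cell as founder cannot be told apart.

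VANGL2 is a membrane protein with which epithelial cells orient themselves within the plane of a tissue, and it is also needed for the branching of the mammary ducts. Interferons act through JAK kinases and STAT transcription factors to switch on genes that detect and block viruses. A kinase of the same family and STAT5A carry the prolactin signal that turns mammary cells to milk production. Epithelial cells hold one another through cadherins and desmosomes, whereas mesenchymal cells lay down fibronectin and fibrillar collagens and carry vimentin.

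Counts per gene of *Vangl2* itself were not lower in the cultures labelled *KD2*. They came to 3.38, 3.96 and 4.2 counts per 1000000 counts (CPM) in the 3 *WT* cultures and 3.63, 3.92 and 4.42 CPM in the 3 *KD2* cultures, with a log2 fold change of 0.05 ± 0.16 (SE) and an adjusted p of 0.81 in edgeR's quasi-likelihood test. Groups overlapped. Counts over the whole gene do not check an edit that places stop codons in the message, so they neither bear out nor contradict the label.

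The 6 libraries held between 19231428 and 28360592 counts, and 15253 of the 55228 genes in the table had enough counts to be tested. The third *KD2* culture stood apart by its deviation with GC content. Genes were put into 5 equal groups by the GC content of their exons, and the median deviation of that culture from the other 2 of its line ran from -0.32 (log2) in the group with the lowest GC content to 0.26 in the group with the highest. In the first and second *KD2* cultures the same values ran from 0.13 to -0.11 and from 0.18 to -0.15, and in *WT* all of them lay between -0.07 and 0.05. Each result was therefore fitted again without the third *KD2* culture. The plot of deviations by GC content shows this slope.

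**Figure D1:**
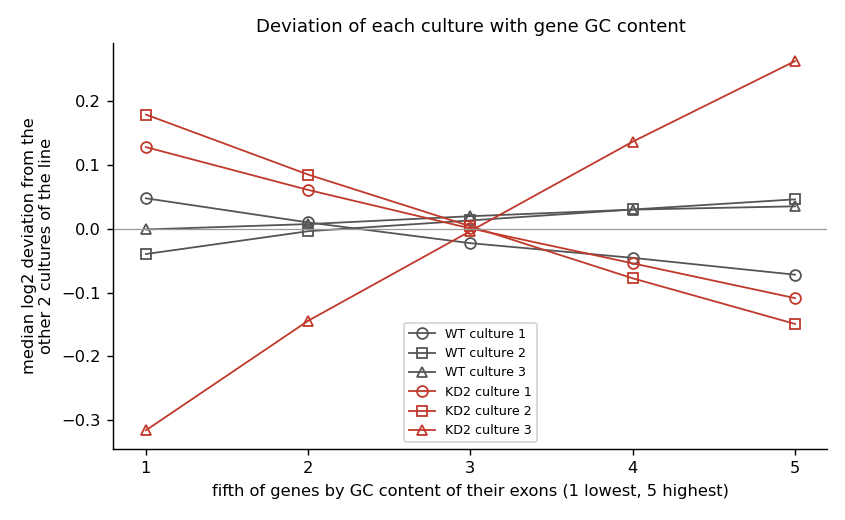
Median log2 deviation of each culture from the mean of the other 2 cultures of its line (vertical axis), for genes in 5 equal groups by GC content of their exons (horizontal axis); grey lines are the *WT* cultures and red lines the *KD2* cultures. The third *KD2* culture climbs from -0.32 to 0.26 while the *WT* cultures stay between -0.07 and 0.05.

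The cultures of both lines were epithelial by their markers. The summed level of 8 mammary epithelial markers was 5000 to 5581 CPM in *WT* and 2974 to 3652 CPM in *KD2*; of these markers only *Krt19* was at 0 in all 6 cultures. The sum of 8 fibroblast markers was 17 to 23 CPM in *WT* and 90.0 to 99.7 CPM in *KD2*, of which *Pdgfrb* alone gave a mean of 66.7 CPM in *KD2*, while *Lum* and *Thy1* were at or under 3 counts in every culture. Markers of leukocytes summed to at most 0.399 CPM in any culture of either line. In such bulk samples, fewer cells of a type and less RNA per cell cannot be told apart.

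A gene was called where its adjusted p was under 0.05 and its level differed more than 2-fold, an absolute log2 fold change above 1. By this rule 2211 genes were higher in *KD2* (14.5% of those tested) and 1024 were lower (6.71%). The median log2 fold change of all genes tested was 0.01. Without the third *KD2* culture, 2388 genes were higher (15.3% of 15597 tested) and 1014 lower (6.5%); 2134 of the higher genes and 912 of the lower genes were called in both fits, and 0 were called in opposite directions. On the adjusted p alone, 10254 genes passed (67.2%), so that passing is common in this comparison and a list is described by its called members. The shares over all genes tested, 14.5% higher and 6.71% lower, are the background for the counts of every list below. Below, values after ± are standard errors of the log2 fold change *KD2* against *WT* over 3 cultures a side, and every gene whose change is given passed in edgeR's test unless the text says that it did not.

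Much of the difference lay in large changes. Of the genes called higher, 880 differed by at least 4-fold and 190 by at least 16-fold, and among those called lower 308 and 95 did so. In 254 of the genes called higher, each *WT* library had at most 3 counts, and in 102 of those called lower each *KD2* library had at most 3. For such a gene the fitted log2 fold change depends on a small constant added in the fit. It could also pass the filter only through a line in which it was higher, so its call rests in part on the filter. Where all libraries of the low line had 0 counts, a lower bound of the fold is given instead, with 3 counts a library standing for that line. Where any had 1 to 3, the ratio of the counts per library size, high line over low line, stands beside it with an exact 95% interval that covers counting error only. Groups did not overlap in 2184 of the genes called higher and 995 of those called lower. The rule for a call favours such genes, and their share over all genes tested was not counted. These counts therefore add no support to the calls. Of the called genes, 1683 higher and 851 lower ones code for proteins.

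**Figure D2:**
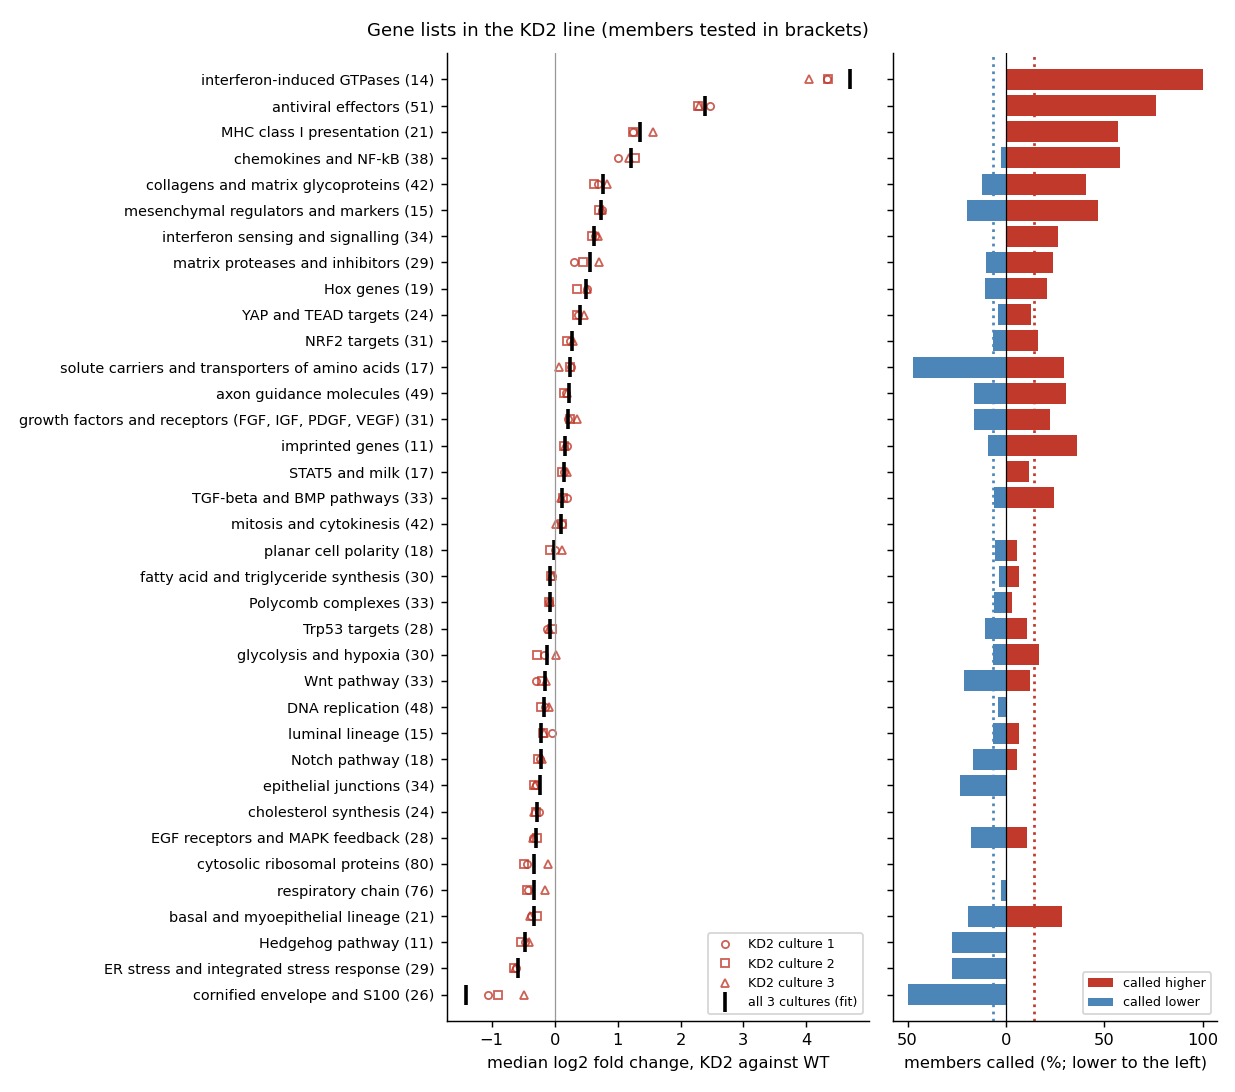
Left, median log2 fold change of the members tested in each of 36 gene lists, for all cultures in the fit (black ticks) and for each *KD2* culture against the mean of *WT* (red symbols, from log2 CPM with a small constant added, which pulls low genes toward 0). Right, percent of members called higher (red, to the right) and lower (blue, to the left), with dotted lines at 14.5% and 6.71%, the shares over all genes tested. Interferon-induced GTPases, antiviral effectors and class I presentation lie at the top and the cornified envelope list at the bottom. Interferon sensing and signalling (median 0.63) lies under the chemokine, matrix and mesenchymal lists.

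Interferon-induced GTPases and antiviral effectors had the highest medians among the lists. All 14 interferon-induced GTPases tested were called higher in *KD2*, with a median log2 fold change of 4.69, and the 5 others on the list were below the filter. These proteins coat the vacuoles of parasites and bacteria inside cells. Of 51 antiviral effectors tested, which bind or degrade viral RNA or hinder the release of virus, 39 were called higher and 0 lower (median 2.39). Both counts were the same without the third *KD2* culture, though not with all the same antiviral effectors, and the medians were then 4.85 and 2.50. With the 6 GTPases and 8 antiviral effectors that had at most 3 counts in each *WT* library set to their fold over 3 counts a library, the medians were 4.24 and 2.29. These 6 and 8 could pass the filter only through an edited line in which they were higher. The counts of calls in both lists therefore rest in part on the filter.

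Several of these genes share a short stretch before their start. The interferon-stimulated response element is the site that STAT2, IRF9 and other IRF proteins bind, and a simple form of it is GAAA, any 2 bases and GAAA again. It was searched for on both strands in the 250 bases before each start in RefSeq promoters of GRCm38.p6. Of the 32851 promoters in that table, 2.98% held it. Counted per gene, with a match in any of its promoters, 3.05% of the 10584 genes tested that had a promoter there held it. Among genes called higher in *KD2* that had a promoter there, 5.28% of 1478 held it, and among those called lower 2.77% of 685. It was present for 9 of the 10 GTPases and 15 of the 29 called antiviral effectors that had a promoter there, but for only 1 of the 10 called genes of class I presentation, 1 of 6 for sensing and signalling and 1 of 15 for chemokines and NF-kB. A match is a description of the reference sequence and not a measured site. The stretches below, of genes from 4 lists that were called higher and had an average log2 CPM above 2, show how the element lies (*H2-T22* and *Stat2* are the only called members of their lists with a match), with its matches in capitals (overlapping matches run together), read 5′ to 3′ on the strand of the gene:
Gbp3: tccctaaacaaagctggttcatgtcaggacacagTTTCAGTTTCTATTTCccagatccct
Gbp7: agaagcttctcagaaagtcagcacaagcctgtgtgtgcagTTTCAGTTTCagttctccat
Irgm2: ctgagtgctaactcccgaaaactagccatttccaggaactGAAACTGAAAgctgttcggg
Apol9b: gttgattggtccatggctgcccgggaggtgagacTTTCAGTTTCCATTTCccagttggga
Apol9a: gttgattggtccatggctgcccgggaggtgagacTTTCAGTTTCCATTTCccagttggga
Oas1a: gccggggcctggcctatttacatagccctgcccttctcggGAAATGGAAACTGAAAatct
H2-T22: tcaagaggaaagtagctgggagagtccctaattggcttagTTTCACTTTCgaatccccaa
Stat2: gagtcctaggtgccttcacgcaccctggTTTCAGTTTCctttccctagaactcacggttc

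On GRCm38.p6 these stretches lie at chr3:142559965-142560024 on the plus strand (*Gbp3*), chr3:142530243-142530302 on the plus strand (*Gbp7*), chr11:58214873-58214932 on the plus strand (*Irgm2*), chr15:77729001-77729060 on the plus strand (*Apol9b*), chr15:77411114-77411173 on the minus strand (*Apol9a*), chr5:120907526-120907585 on the minus strand (*Oas1a*), chr17:36042914-36042973 on the minus strand (*H2-T22*) and chr10:128270248-128270307 on the plus strand (*Stat2*). All 8 end before the annotated start of the gene. The 60 bases of *Apol9a* and *Apol9b* are alike letter for letter. In *Gbp3*, *Gbp7*, *Apol9a*, *Apol9b*, *H2-T22* and *Stat2* the capitals read as the reverse complement of the element, TTTC followed by any 2 bases and TTTC. A second motif, the gamma-activated site to which STAT dimers bind (TTC, any 3 bases, GAA), was in 7.02% of all promoters. Counted per gene with a promoter, it was found for 7.07% of the genes tested and 7.92% of those called higher. It was found for 5 of the 10 GTPases and 2 of the 29 called antiviral effectors (6.9%) with a promoter.

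The level of the 14 GTPases in *WT* ranged from none to the 11.9 CPM of *Irgm1* (mean of 3 cultures), and 6 of them had at most 3 counts in each *WT* library. *Gbp4* read 0.102, 0.0400 and 0.146 CPM in the *WT* cultures, each from 3 counts or fewer, and 16, 15.1 and 12.7 CPM in *KD2* (log2 fold change 7.23 ± 0.30, adjusted p = 1.6e-10, ratio of 159.9 with interval 73.2 to 437). *Gbp9* read 0.819, 0.32 and 0.439 CPM in *WT* and 37.2, 38.2 and 27.4 CPM in *KD2* (6.07 ± 0.22), a guanylate-binding protein of the same cluster. *Gbp8* had 0 counts in *WT* and 2.79, 3.06 and 2.75 CPM in *KD2*, at least 20.5-fold higher, though 18.1% of its 50-base windows occur in other genes and reads may be split among them. As the rule by which *Gbp4* and *Gbp9* were named required of them, no *KD2* culture overlapped with *WT* for any of these 3 genes. The same held for *Tgtp1*, whose levels were 0, 0 and 0.0488 CPM and 2.26, 2.43 and 1.62 CPM (ratio of 140.2 with interval 24.8 to 5569.6), but 81.2% of its windows are shared.

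Among the other members with a printed promoter, *Gbp3* read 0.819, 0.400 and 0.39 CPM in *WT* and 26.8, 25.9 and 23.2 CPM in *KD2* (5.58 ± 0.17). *Gbp7* read 2.25, 1.52 and 1.71 CPM in *WT* and 38, 42.5 and 26.6 CPM in *KD2* (4.31 ± 0.19). Of the immunity-related GTPases, which act on the same vacuoles, *Irgm2* had 1.07, 0.839 and 1.12 CPM in *WT* and 21.3, 18.9 and 16.9 CPM in *KD2* (4.24 ± 0.15). Its relative *Irgm1*, which guards the cell's own membranes, moved from 11.8, 11.6 and 12.2 CPM to 45.3, 45.4 and 43.4 CPM (1.91 ± 0.07), and its rise was the smallest of the 14.

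The antiviral effectors were less uniform. Of the 12 that were not called, *Ifitm2* and *Tor3a* passed as lower (-0.44 ± 0.07 and -0.22 ± 0.06), and the called *Bst2*, which tethers virus to the cell, moved from 25.9, 26.4 and 30.6 CPM to 56.3, 50.2 and 68.9 CPM (1.08 ± 0.11). Without the third *KD2* culture *Bst2* passed but was not called (0.97). Others had few counts in *WT*. *Sp100* read 0.154, 0.0799 and 0.0488 CPM in *WT* and 13.9, 13 and 11.1 CPM in *KD2* (7.03 ± 0.27, ratio of 138 with interval 63.4 to 378), a protein of nuclear bodies that restrains viral DNA, and each *WT* library had at most 3 counts. For the apolipoproteins L9, *Apol9a* gave 0.409, 0.44 and 0.195 CPM in *WT* and 18.5, 16.7 and 20.2 CPM in *KD2* (5.68 ± 0.18) and *Apol9b* gave 0.154, 0.0799 and 0.0488 CPM in *WT* and 6.3, 7.02 and 7.96 CPM in *KD2* (6.18 ± 0.26, ratio of 76.3 with interval 34.8 to 209), with 16.5% and 52.3% of their windows shared with another gene. *Oas1a*, which makes the signal that starts RNA decay by RNase L, stood at 0.256, 0.28 and 0.0976 CPM in *WT* and 7.87, 6.98 and 9.19 CPM in *KD2* (5.18 ± 0.25). *Ifi27l2a* and *Ifit3b* had 0 counts in all 3 *WT* cultures, and reached 0.444, 0.499 and 0.835 CPM and 0.404, 0.831 and 0.884 CPM in *KD2*, so that they were at least 4.24-fold and 5.05-fold higher; 45% of the windows of *Ifit3b* occur elsewhere.

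Sensors and signalling proteins of the interferon response had a lower median. Of 34 tested, 9 were called higher (26.5%) and 0 lower, with a median of 0.63. Of the receptor subunit genes, *Ifnar2* rose by 0.68 ± 0.08 and *Ifngr1* differed by -0.35 ± 0.06, both without being called; *Ifnar1* differed by -0.16 ± 0.06 and did not pass without the third *KD2* culture (-0.09, adjusted p = 0.080). *Ifnb1* was below the filter. *Stat2* read 8.24, 9.95 and 9.95 CPM in *WT* and 30.3, 28.8 and 28.2 CPM in *KD2* (1.63 ± 0.08), whose protein acts together with IRF9. *Zbp1*, a sensor of left-handed nucleic acid, went from 0.102, 0.12 and 0.342 CPM to 5.09, 4.79 and 5.8 CPM (4.78 ± 0.26).

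The IRF factors differed by member. *Irf7* read 0.563, 0.200 and 0.342 CPM in *WT* and 4.04, 4.29 and 4.82 CPM in *KD2* (3.6 ± 0.25), the factor that amplifies type I interferon. For *Irf8*, whose protein drives macrophage and dendritic cell fates, counts were few, with 0.0512, 0 and 0.0976 CPM in *WT*, each from at most 3 counts, and 0.646, 0.798 and 1.13 CPM in *KD2* (4.05 ± 0.57, adjusted p = 2.7e-05, ratio of 18.2 with interval 5.94 to 90.5). *Irf1* had 31.1, 32.8 and 33 CPM in *WT* and 85.7, 87.6 and 101 CPM in *KD2* (1.5 ± 0.07), with every *KD2* culture above every *WT* culture. *Irf2* and *Irf3* did not pass, at 0.01 ± 0.07 and 0.03 ± 0.08.

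Class I antigen presentation rose beside them, with 12 of 21 members called higher and 0 lower (median 1.36). Without the third *KD2* culture 11 were called higher (median 1.28). *Nlrc5* read 0.563, 0.200 and 0.146 CPM in *WT* and 5.73, 5.19 and 6.58 CPM in *KD2* (4.28 ± 0.28), the transactivator of class I genes. The immunoproteasome subunits *Psmb8* and *Psmb9* gave 0, 0.12 and 0.146 CPM in *WT* and 4.12, 4.16 and 6.24 CPM in *KD2* (5.62 ± 0.40, ratio of 51 with interval 23.2 to 140.0) and 0.205, 0.24 and 0.244 CPM in *WT* and 2.02, 2.66 and 3.64 CPM in *KD2* (3.54 ± 0.33). Transporters of peptides into the endoplasmic reticulum had log2 fold changes of 1.79 ± 0.11 (*Tap1*) and 2.5 ± 0.11 (*Tap2*), and the heavy chain gene *H2-D1* had 3.23 ± 0.10. *B2m*, the light chain, differed by 0.87 ± 0.05 and so passed without being called.

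Chemokines and NF-kB genes had 22 of 38 members called higher and 1 lower (median 1.21). *Ccl7*, which draws monocytes, had 0 counts in *WT* and 1.05, 0.864 and 0.59 CPM in *KD2* (at least 5.96-fold higher), and *Csf2* likewise had 0 counts and then 0.848, 0.399 and 0.491 CPM (at least 4.14-fold higher). *Vcam1*, an adhesion molecule for leukocytes, read 0, 0 and 0.0488 CPM in *WT* and 2.02, 1.83 and 1.82 CPM in *KD2* (6.53 ± 0.57, ratio of 123 with interval 21.7 to 4886), and was at or under 3 counts in each *WT* library. *Il1a* was the only member called lower, with 17.1, 10.6 and 11.3 CPM in *WT* and 4.12, 4.82 and 4.42 CPM in *KD2* (-1.53 ± 0.16). The NF-kB subunit genes *Nfkb1* and *Rela* did not pass, at -0.07 ± 0.05 and -0.03 ± 0.07, whereas the target *Nfkbie* had 1.92 ± 0.07.

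The other edited line also had higher interferon genes, to a different extent. Its own median log2 fold changes against the same *WT* cultures were 2.52 for the GTPases, 1.81 for the antiviral effectors and 0.86 for class I presentation. They were 0.82 for sensing and signalling, above the 0.63 of *KD2*, and 2.21 for chemokines and NF-kB genes. These comparisons share the *WT* cultures. In the contrast of *KD2* with *KD1*, which 67.8% of all genes passed in either direction, all 14 GTPases passed as higher in *KD2*. Of the 51 antiviral effectors 30 passed as higher and 13 as lower, and of the 21 class I genes 12 and 6. Of the 34 sensing and signalling genes 12 passed as higher and 14 as lower, and of the 38 chemokine and NF-kB genes 12 and 24. *Irf1* did not pass in that contrast (-0.05 ± 0.07, adjusted p = 0.48), and *Psmb8* differed by 6.1 ± 0.40.

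**Figure D3:**
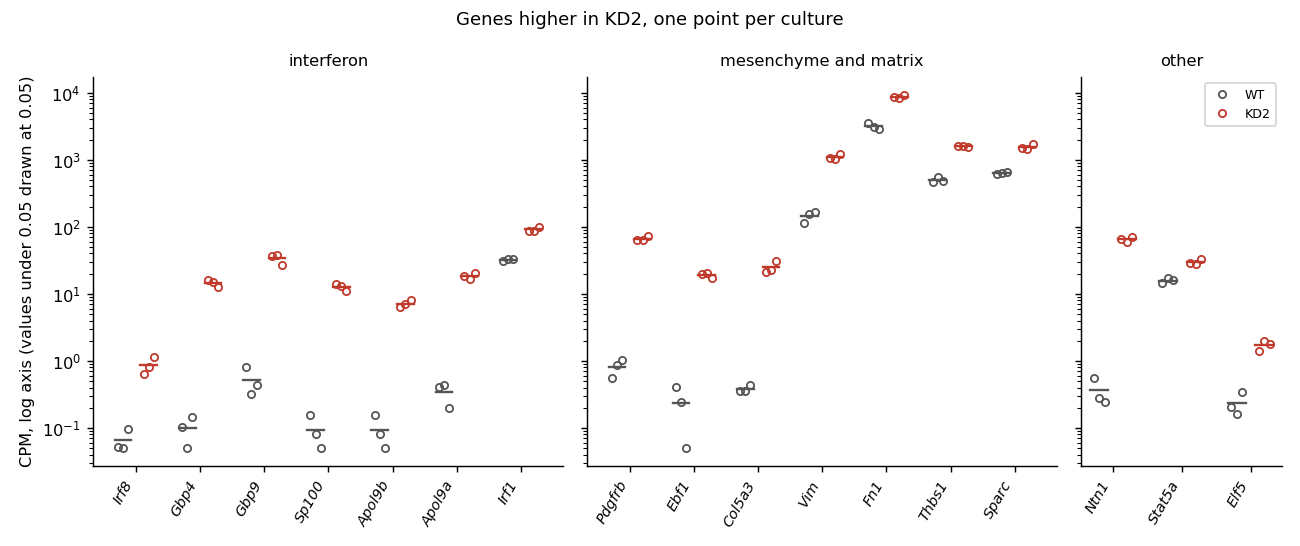
CPM of 17 genes in each *WT* culture (grey) and *KD2* culture (red) on a log axis, with values under 0.05 drawn at 0.05 and bars at the means of the points as drawn. For every gene shown the 3 *KD2* cultures lie above the 3 *WT* cultures.

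STAT5 and milk genes did not move as a group. Of 17 members tested, 2 were called higher (11.8%) and 0 lower, beside 14.5% and 6.71% over all genes tested. Their median was 0.14, and the caseins and *Wap* were below the filter. *Stat5a* read 14.3, 17 and 16.1 CPM in *WT* and 28.6, 28.2 and 33.3 CPM in *KD2* (0.92 ± 0.09), with an adjusted p of 6.5e-07. All 3 *KD2* cultures lay above *WT*, at a change just under the limit for a call. *Stat5b*, its near copy, read 59.7, 59.6 and 63.3 CPM and 59.3, 55.1 and 61.6 CPM and did not pass (-0.05 ± 0.06, adjusted p = 0.45); 11% of its windows occur in other genes.

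*Elf5*, the transcription factor of alveolar cells, was low in both lines, with 0.205, 0.16 and 0.342 CPM in *WT* and 1.41, 1.96 and 1.77 CPM in *KD2* (2.87 ± 0.39). *Socs3* read 53.8, 70.8 and 64.7 CPM in *WT* and 141, 124 and 136 CPM in *KD2* (1.08 ± 0.09), a feedback inhibitor of JAK kinases. *Ccnd1*, which encodes cyclin D1, fell from 696, 726 and 723 CPM to 626, 615 and 649 CPM (-0.18 ± 0.05, adjusted p = 0.0047); it did not pass when scaled by library size alone. In *KD1* the log2 fold change of *Stat5a* was about the size of its standard error (-0.09 ± 0.09), and that of *Ccnd1* was 1.11 ± 0.05. For these 2 genes *KD2* differed from *KD1* by 1.01 ± 0.09 and -1.29 ± 0.05 (adjusted p = 1.8e-07 and 3.0e-11 in edgeR's test).

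Mesenchymal and matrix genes were also higher by the medians of their lists, though members were called both ways. Of 15 mesenchymal regulators and markers tested, 7 were called higher (46.7%) and 3 lower (20%), with a median of 0.73. Of 42 collagens and matrix glycoproteins 17 were called higher (40.5%) and 5 lower (11.9%), with a median of 0.77. In both lists the shares higher and lower were above those over all genes tested. *Pdgfrb* read 0.563, 0.879 and 1.02 CPM in *WT* and 63.5, 64.1 and 72.5 CPM in *KD2* (6.32 ± 0.14), the receptor for platelet-derived growth factor B that marks pericytes and fibroblasts. *Zeb1*, which represses E-cadherin, gave 1.28, 1.32 and 1.17 CPM in *WT* and 30.2, 31.8 and 26 CPM in *KD2* (4.54 ± 0.13). *Cdh2*, the N-cadherin of nerve and mesenchyme, gave 23.7, 24.2 and 24.3 CPM in *WT* and 165, 174 and 158 CPM in *KD2* (2.79 ± 0.07).

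Matrix and filament genes were among the largest gains in level per length. *Fn1*, which encodes fibronectin, rose from 3470.4, 3099.5 and 2921 CPM in *WT* to 8684, 8283 and 9292 CPM in *KD2* (1.47 ± 0.06, adjusted p = 2.7e-10). *Vim* read 113, 158 and 165 CPM in *WT* and 1049.8, 1019 and 1203 CPM in *KD2* (2.91 ± 0.12), the intermediate filament of mesenchymal cells. For *Thbs1*, thrombospondin 1, the values were 459.7, 551 and 473 CPM in *WT* and 1588, 1619 and 1566 CPM in *KD2* (1.69 ± 0.07). *Sparc* read 604, 626 and 658 CPM in *WT* and 1493, 1449 and 1737 CPM in *KD2* (1.31 ± 0.07), a matrix protein that binds collagen, and *Slpi*, a secreted inhibitor of elastase, had 102, 116 and 120.4 CPM in *WT* and 275, 255 and 402 CPM in *KD2* (1.46 ± 0.13); the third *KD2* culture was the highest, and without it the log2 fold change was 1.26. The rule by which these 5 were named required that groups did not overlap.

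Fibrillar collagens did not all rise. *Col5a3*, a minor chain of type V collagen, had 0.358, 0.36 and 0.439 CPM in *WT* and 21.3, 22.3 and 30.9 CPM in *KD2* (5.99 ± 0.24), and *Col5a1* and *Col5a2*, the major chains of the same type, had log2 fold changes of 1.57 ± 0.10 and 2.23 ± 0.27. *Fbn1*, fibrillin of elastic fibres, gave 0.665, 0.600 and 0.732 CPM in *WT* and 4.97, 5.62 and 5.26 CPM in *KD2* (2.99 ± 0.17). The lysyl oxidase relative *Loxl1*, which links such fibres, had at most 3 counts in each *WT* library and 0.565, 0.632 and 1.08 CPM in *KD2* (ratio of 23.8 with interval 6.28 to 201). *Col1a1*, in contrast, differed by -0.71 ± 0.17 and *Col3a1* did not pass (-0.17 ± 0.18).

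Some matrix and mesenchymal genes fell. *Col6a3*, a chain of type VI collagen, fell from 33.7, 48.6 and 40.1 CPM to 6.7, 5.82 and 7.37 CPM (-2.64 ± 0.13), although *Col6a2* had 1.47 ± 0.11. *Col17a1*, the collagen of hemidesmosomes, had 542, 673 and 605 CPM in *WT* and 185, 170.0 and 201 CPM in *KD2* (-1.71 ± 0.08). *Tgfbi*, a matrix protein induced by TGF-beta, gave 10.3, 16.9 and 15.2 CPM in *WT* and 0.202, 0.133 and 0.393 CPM in *KD2* (-5.94 ± 0.28), and *Prrx1*, a homeobox factor of mesenchyme, gave 8.14, 5.4 and 6.93 CPM in *WT* and 0.404, 0.731 and 0.246 CPM in *KD2* (-3.78 ± 0.26). *Twist1* and *Snai2*, which repress epithelial genes as *Zeb1* does, had log2 fold changes of -1.23 ± 0.14 and -0.88 ± 0.08, while *Snai1* and *Zeb2* had 1.37 ± 0.17 and 1.96 ± 0.13.

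Proteases of the matrix and their inhibitors went both ways, with 7 of 29 called higher and 3 lower (median 0.57). *Adamts4* read 0.972, 0.799 and 0.927 CPM in *WT* and 9.33, 8.81 and 11.1 CPM in *KD2* (3.43 ± 0.16), which cleaves aggrecan, and *Mmp19* gave 0.819, 0.52 and 0.488 CPM in *WT* and 6.94, 5.45 and 6.14 CPM in *KD2* (3.35 ± 0.21). *Plau*, the urokinase that activates plasminogen, fell from 48.1, 55.7 and 54.5 CPM to 20.6, 24.8 and 24.1 CPM (-1.19 ± 0.08), and its inhibitor *Serpinb2* had 7.22, 6.59 and 5.76 CPM in *WT* and 0.727, 0.465 and 0.344 CPM in *KD2* (-3.64 ± 0.19). *Timp1*, on the X chromosome, differed by -1.05 ± 0.07.

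The *KD1* line had the opposite sign for part of this group: its log2 fold changes against *WT* were -2.5 ± 0.38 for *Pdgfrb*, -2.99 ± 0.12 for *Vim*, -2.79 ± 0.07 for *Fn1* and -6.32 ± 0.14 for *Cdh2*, and its median for the collagen and matrix list was -0.25. *KD2* differed from *KD1* by 8.82 ± 0.17, 5.9 ± 0.14, 4.26 ± 0.07 and 9.1 ± 0.12 in these genes, each passing. *Zeb1* in *KD1* did not pass (0.05 ± 0.19).

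Epithelial genes were lower in part. Of 34 junction genes tested, 0 were called higher and 8 lower (median -0.24). *Rab25*, which recycles membrane proteins in epithelia, had 87.6, 92 and 95.6 CPM in *WT* and 25, 24.5 and 28.9 CPM in *KD2* (-1.81 ± 0.07). *Pkp3* read 155, 175 and 175 CPM in *WT* and 56.9, 53.7 and 67.8 CPM in *KD2* (-1.5 ± 0.08), a plaque protein of desmosomes, and *Cldn7*, a claudin of tight junctions, had 0.768, 0.759 and 0.781 CPM in *WT* and 0.202, 0.266 and 0.0983 CPM in *KD2* (-1.92 ± 0.35). Further called members were *Dsp* at -1.25 ± 0.07, *Dsc2* at -1.28 ± 0.08, *Marveld3* at -1.46 ± 0.15, and the splicing regulators of epithelia *Esrp1* at -1.28 ± 0.07 and *Esrp2* at -1.27 ± 0.07. *Cdh1*, the E-cadherin, passed but was not called (-0.69 ± 0.05), and *Ocln* and *Tjp1* did not pass (0.09 ± 0.09 and -0.07 ± 0.08).

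Keratins and lineage genes split. Among 21 basal and myoepithelial genes, 6 were called higher and 4 lower (median -0.32), and among 15 luminal genes 1 was called each way (median -0.22). The contractile genes of myoepithelium did not move together. *Mylk* read 0.0512, 0.24 and 0.0976 CPM in *WT* and 8.88, 8.68 and 10.02 CPM in *KD2* (6.0 ± 0.26), *Cnn1* gave 0.154, 0.0799 and 0.0488 CPM in *WT* and 2.79, 3.16 and 3.39 CPM in *KD2* (5.0 ± 0.30, ratio of 33.6 with interval 15.2 to 92.5) and *Acta2* gave 0.0512, 0.200 and 0.244 CPM in *WT* and 1.57, 1.43 and 1.62 CPM in *KD2* (3.15 ± 0.33), whereas *Myh11* and *Tagln* did not pass (-0.31 ± 0.34 and 0.26 ± 0.28) and *Oxtr*, the oxytocin receptor, passed as lower (-0.94 ± 0.13). On the lower side, *Id4*, a regulator of basal and stem cell state, fell from 215, 187 and 212 CPM to 15.7, 14.6 and 12.8 CPM (-3.83 ± 0.09), and *Cdh3*, the P-cadherin of basal cells, had 91.7, 100.4 and 98.5 CPM in *WT* and 13, 13.2 and 15 CPM in *KD2* (-2.82 ± 0.07). *Krt6a* gave 31, 44.2 and 33.6 CPM in *WT* and 7.95, 7.61 and 9.63 CPM in *KD2* (-2.13 ± 0.13), with 45.7% of its windows shared with other genes. *Krt5* and *Krt14* differed by -0.96 ± 0.08 and -0.90 ± 0.08, just under the limit, and without the third *KD2* culture *Krt5* was called lower (-1.04), whereas *Krt8* had 0.76 ± 0.09. In the luminal list *Cd14* was called higher, with 6.29, 6.2 and 7.17 CPM in *WT* and 18.7, 19.4 and 21.7 CPM in *KD2* (1.6 ± 0.10), and *Ly6d* lower, with 2.25, 3.48 and 4.001 CPM in *WT* and 0.0807, 0.0665 and 0.0491 CPM in *KD2* (-5.51 ± 0.45, ratio of 49.2 with interval 20.8 to 153).

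Genes of the cornified envelope, the cross-linked layer of keratinised cells, were lower. Of 26 tested, 13 were called lower and 0 higher, with a median of -1.41 (-1.28 with the 3 genes that had at most 3 counts in each *KD2* library set to their fold over 3 counts a library, and -0.38 over the members with at least 10 counts in every culture), and in *KD1* the median was 1.57. *Krtdap* had 0.665, 0.999 and 1.27 CPM in *WT* and 0 in all *KD2* cultures (at least 7.96-fold lower). *Sprr1b* had 11.8, 14.4 and 13.1 CPM in *WT* and 0.606, 0.864 and 0.983 CPM in *KD2* (-4.01 ± 0.15), and *S100a14* had 59.7, 63.3 and 61.6 CPM in *WT* and 7.63, 7.58 and 9.04 CPM in *KD2* (-2.94 ± 0.08). *Sprr2a1* and *Sprr2a2* were at 0 in *KD2* and had 0.307, 0.24 and 0.146 CPM and 0.256, 0.32 and 0.39 CPM in *WT* (at least 1.88-fold and 2.62-fold lower), with 96.3% and 96.5% of their windows shared with each other or with related genes. A total of 20 members passed as lower in *KD2* than in *KD1*.

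Amino acid genes were among the largest losses per length. *Slc7a5* and *Slc3a2* encode the light and heavy chains of the LAT1 carrier of large neutral amino acids. *Slc7a5* read 1422, 1293 and 1314 CPM in *WT* and 321, 306 and 349 CPM in *KD2* (-2.04 ± 0.06), with an adjusted p of 9.1e-12, and *Slc3a2* had 763, 716 and 773 CPM in *WT* and 318, 309 and 374 CPM in *KD2* (-1.17 ± 0.07). *Psat1* read 874, 849 and 891 CPM in *WT* and 330.3, 320.1 and 320.5 CPM in *KD2* (-1.43 ± 0.05), an enzyme of serine synthesis, and *Asns*, the asparagine synthetase, had 703, 658 and 706 CPM in *WT* and 321, 311 and 302 CPM in *KD2* (-1.15 ± 0.05). All 4 were also lower in *KD1*, by -1.91 ± 0.06, -1.21 ± 0.07, -0.64 ± 0.05 and -0.75 ± 0.05. *Slc7a5* and *Slc3a2* did not pass in the contrast of the edited lines (-0.13 ± 0.06 and 0.04 ± 0.07, adjusted p = 0.065 and 0.61).

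These genes are targets of ATF4, the factor of the integrated stress response. On the list of that response and of stress in the endoplasmic reticulum, 0 of 29 were called higher and 8 lower (median -0.58), with 19 passing as lower and 8 as higher. *Atf4* itself differed by -0.91 ± 0.06, *Ddit3* by -0.89 ± 0.09, and the mitochondrial folate enzymes *Shmt2* and *Mthfd2* by -1.47 ± 0.07 and -1.33 ± 0.05. The chaperone *Hspa5* and the factor *Xbp1*, which belong to the unfolded protein response, had 0.63 ± 0.05 and 0.73 ± 0.06. *Vldlr*, a lipoprotein receptor, gave 252, 229 and 220.3 CPM in *WT* and 62.7, 64.3 and 58 CPM in *KD2* (-1.92 ± 0.07).

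The 17 other carriers of amino acids tested did not move as a group, with 8 called lower and 5 higher and a median of 0.25 (8 passed as lower and 9 as higher). The glutamine carriers *Slc1a5* and *Slc38a2* had log2 fold changes of -1.64 ± 0.07 and -1.2 ± 0.06, and *Slc38a1* went from 0.716, 0.919 and 0.927 CPM to 0, 0.0997 and 0.0491 CPM, with at most 3 counts in each *KD2* library (ratio of 16.2 with interval 5.98 to 61.5). On the other side, *Slc43a2* read 1.84, 2.52 and 2.63 CPM in *WT* and 11.5, 11.8 and 11.7 CPM in *KD2* (2.31 ± 0.14), a carrier of neutral amino acids, and *Slc7a7* had 0.358, 0.639 and 0.781 CPM in *WT* and 2.54, 2.49 and 2.36 CPM in *KD2* (2.04 ± 0.23). *Slc7a11*, the cystine carrier and a target of NRF2, had 137, 121 and 117 CPM in *WT* and 39.9, 39.96 and 29.8 CPM in *KD2* (-1.77 ± 0.10). Among 31 NRF2 targets 5 were called higher (16.1%) and 2 lower (6.45%), near the 14.5% and 6.71% over all genes tested (median 0.27). One of them, *Nqo1*, a quinone reductase, had 1.43, 2.24 and 2.05 CPM in *WT* and 11.1, 10.9 and 9.97 CPM in *KD2* (2.47 ± 0.14).

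**Figure D4:**
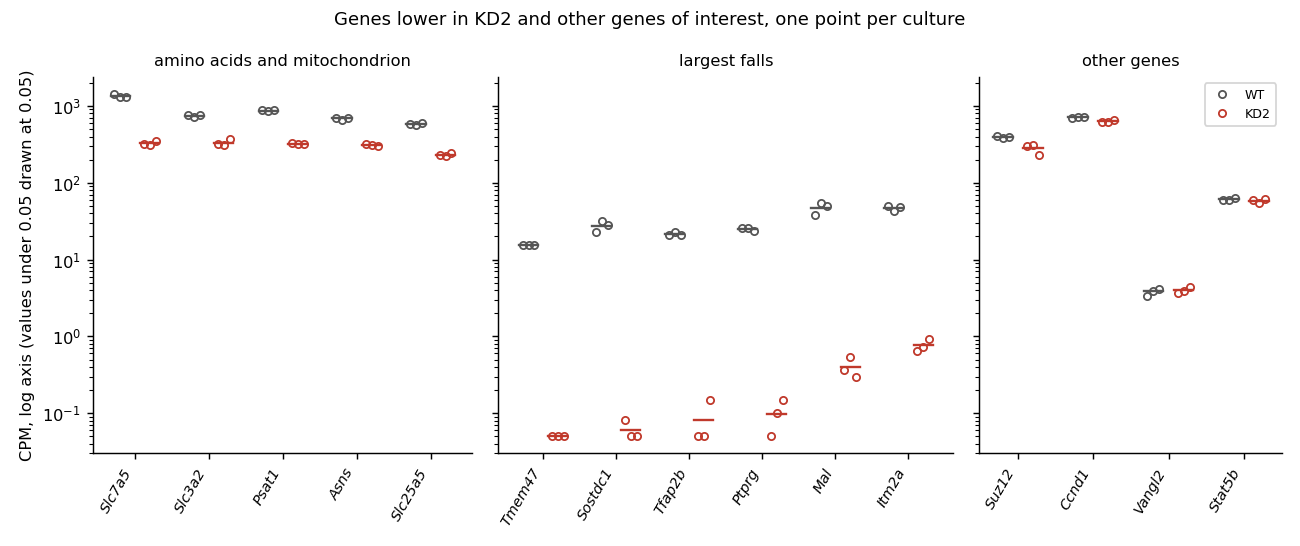
CPM of 15 genes in each *WT* culture (grey) and *KD2* culture (red) on a log axis, with values under 0.05 drawn at 0.05 and bars at the means of the points as drawn. In the first and second panels every *KD2* culture lies below every *WT* culture; in the third *Vangl2* and *Stat5b* overlap.

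Ligands and inhibitors of developmental signals changed one by one. In the Wnt list 4 of 33 were called higher (12.1%) and 7 lower (21.2%), with a median of -0.16. The ligand *Wnt9a* had 6.86, 8.11 and 7.81 CPM in *WT* and 26.4, 28 and 29.8 CPM in *KD2* (1.88 ± 0.09) and the ligand *Wnt7a* had 1.79, 1.64 and 1.22 CPM in *WT* and 0.0404, 0.0665 and 0.0491 CPM in *KD2* (-4.74 ± 0.38, ratio of 29.2 with interval 11.1 to 109). *Ror1*, a receptor of Wnt5a, gave 0.768, 0.679 and 0.585 CPM in *WT* and 19.2, 18.1 and 14.3 CPM in *KD2* (4.66 ± 0.17). The inhibitors *Sostdc1* and *Nkd2* also fell: *Sostdc1*, which binds BMP and Wnt ligands or their receptors, had 22.6, 31.6 and 28.5 CPM in *WT* and 0.0807, 0.0332 and 0 CPM in *KD2* (-9.26 ± 0.29, ratio of 700.1 with interval 239 to 3398), and *Nkd2*, which binds Dishevelled, had 367, 421 and 406 CPM in *WT* and 64.3, 63.6 and 71.9 CPM in *KD2* (-2.58 ± 0.07).

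Hedgehog genes had 3 of 11 called lower (27.3%) and 0 higher (median -0.47). *Hhip*, a decoy for the ligands and itself a target, had 9.93, 9.15 and 9.12 CPM in *WT* and 0.121, 0.399 and 0.197 CPM in *KD2* (-5.19 ± 0.25), and *Gli1*, the target that reports the pathway's activity, had 26.1, 28.1 and 25.3 CPM in *WT* and 11.2, 9.74 and 12.6 CPM in *KD2* (-1.26 ± 0.10). The co-receptor *Boc* differed by -1.06 ± 0.21 and the receptor *Ptch1* by -0.93 ± 0.07. Hedgehog ligands were below the filter. Of 18 Notch genes 1 was called higher (5.56%) and 3 lower (16.7%). The ligand *Dll1* had 7.83, 9.15 and 9.17 CPM in *WT* and 4.16, 3.59 and 3.88 CPM in *KD2* (-1.17 ± 0.11). The target *Hey1* had 17.3, 19.9 and 21.5 CPM in *WT* and 8.68, 7.21 and 8.11 CPM in *KD2* (-1.29 ± 0.11). *Nrarp*, another target, differed by -1.74 ± 0.15, and 77.3% of its windows match a transcript of the opposite strand.

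In the TGF-beta and BMP list 8 of 33 were called higher (24.2%) and 2 lower (6.06%), with a median of 0.11. The ligand *Tgfb2* had 5.02, 3.92 and 4.1 CPM in *WT* and 17.8, 16.4 and 14.8 CPM in *KD2* (1.92 ± 0.11), and the co-receptor *Tgfbr3* had 1.28, 0.679 and 0.293 CPM in *WT* and 20.8, 19.1 and 16.4 CPM in *KD2* (4.66 ± 0.24). *Fstl1*, a secreted relative of follistatin, gave 8.09, 9.11 and 8.88 CPM in *WT* and 54.2, 54.3 and 56.5 CPM in *KD2* (2.66 ± 0.07). *Bmp7* had 5.83, 6.16 and 6.24 CPM in *WT* and at most 3 counts in each *KD2* library (ratio of 229 with interval 62.9 to 1896), and *Inhba*, the activin subunit, had 320.2, 260.1 and 279 CPM in *WT* and 100.1, 101 and 73.7 CPM in *KD2* (-1.64 ± 0.11).

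Among 28 genes of EGF receptors and MAPK feedback 3 were called higher (10.7%) and 5 lower (17.9%), with a median of -0.29. The ligands *Areg* and *Ereg* fell: *Areg* read 51.4, 52.4 and 54.3 CPM in *WT* and 12.4, 13.5 and 13.2 CPM in *KD2* (-2.02 ± 0.06), the growth factor of ductal outgrowth, and *Ereg* had 181, 152 and 152 CPM in *WT* and 49.3, 51.4 and 36.1 CPM in *KD2* (-1.82 ± 0.11). *Etv5*, a factor that reports MAPK activity, gave 118, 125 and 123 CPM in *WT* and 49.1, 44.6 and 46.5 CPM in *KD2* (-1.38 ± 0.06), with 24.5% of its windows shared. *Errfi1*, which inhibits the receptor, had 73.4, 95 and 86.1 CPM in *WT* and 222, 212 and 209 CPM in *KD2* (1.34 ± 0.08). Targets of YAP and TEAD had 3 of 24 called higher (12.5%) and 1 lower (4.17%), beside 14.5% and 6.71% over all genes tested (median 0.39). *Ccn1* had 57.7, 71.6 and 71 CPM in *WT* and 242, 259 and 236 CPM in *KD2* (1.88 ± 0.08). *Rbms3* had 3.43, 2.96 and 4.001 CPM in *WT* and 0.0807, 0.0665 and 0 CPM in *KD2* (-5.89 ± 0.35, ratio of 64.4 with interval 24.8 to 239).

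Guidance molecules of axons, which also act in duct formation, had 15 of 49 called higher and 8 lower (median 0.23). *Ntn1* read 0.563, 0.28 and 0.244 CPM in *WT* and 64.9, 60.1 and 70.8 CPM in *KD2* (7.5 ± 0.15), with an adjusted p of 3.3e-13; netrin-1 was the largest rise under the naming rule. *Sema6b* gave 0.307, 0.200 and 0.39 CPM in *WT* and 5.85, 4.59 and 6.39 CPM in *KD2* (4.23 ± 0.24), and the membrane-anchored netrin *Ntng2* gave 0.307, 0.16 and 0.0488 CPM in *WT* and 3.59, 4.06 and 4.57 CPM in *KD2* (4.54 ± 0.30) while *Ntng1* gave 3.22, 2.72 and 2.59 CPM in *WT* and 0.565, 0.399 and 0.295 CPM in *KD2* (-2.72 ± 0.25). *Ephb1*, a receptor of ephrins, had 2.25, 2.48 and 3.07 CPM in *WT* and 0, 0.0665 and 0.0491 CPM in *KD2* (-5.85 ± 0.39, ratio of 65.1 with interval 21.9 to 319).

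Growth factors and their receptors had 7 of 31 called higher and 5 lower (median 0.21). *Pdgfb*, the ligand of the receptor that *Pdgfrb* encodes, had 2.3, 2.6 and 2.29 CPM in *WT* and 7.71, 8.18 and 9.04 CPM in *KD2* (1.78 ± 0.13). *Vegfc* had 1.69, 2.16 and 1.81 CPM in *WT* and 4.97, 5.15 and 5.55 CPM in *KD2* (1.46 ± 0.15), whereas *Vegfd*, on the X chromosome, had 4.15, 5.04 and 5.32 CPM in *WT* and 1.05, 1.36 and 1.18 CPM in *KD2* (-2.0 ± 0.17). *Fgf13*, also on the X chromosome, fell from 35.6, 36.4 and 34 CPM to 1.05, 0.864 and 0.639 CPM (-5.35 ± 0.13).

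Planar cell polarity genes, the pathway of *Vangl2*, had 1 of 18 called higher (5.56%) and 1 lower (5.56%), with a median of -0.02. *Fat4*, an atypical cadherin, had 2.1, 3.16 and 2.29 CPM in *WT* and 18.7, 17.1 and 17 CPM in *KD2* (2.78 ± 0.14), and *Celsr2*, a cadherin of the core polarity complex, had 190.2, 216 and 181 CPM in *WT* and 84, 80.4 and 91.9 CPM in *KD2* (-1.2 ± 0.07). *Celsr1* passed at -0.90 ± 0.14, and the paralog *Vangl1* did not pass (-0.08 ± 0.06).

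Chromatin genes moved little as a list. Of 33 genes of Polycomb complexes 1 was called higher (3.03%) and 2 lower (6.06%), with a median of -0.07. *Ezh2*, the methyltransferase of Polycomb complex 2, read 188, 200.1 and 206 CPM in *WT* and 229, 233 and 205 CPM in *KD2* (0.17 ± 0.06) with an adjusted p of 0.029, and did not pass in 5 of the alternatives. *Suz12* of the same complex had 407, 380.4 and 389 CPM in *WT* and 303, 310.0 and 229 CPM in *KD2* (-0.48 ± 0.09); the third *KD2* culture was the lowest, and without it the log2 fold change was -0.33. *Bmi1*, of complex 1, did not pass (0.03 ± 0.09), but passed as higher without the third *KD2* culture (0.17, adjusted p = 0.0028). *Bcor*, a partner of complex 1 on the X chromosome, had 55.4, 54.2 and 50.7 CPM in *WT* and 7.47, 7.12 and 7.22 CPM in *KD2* (-2.88 ± 0.07), and *Phf1* had 9.01, 9.31 and 9.03 CPM in *WT* and 24.3, 23.2 and 29.7 CPM in *KD2* (1.49 ± 0.11). Among 19 Hox genes 4 were called higher (21.1%) and 2 lower (10.5%). *Hoxc9* went from 1.28, 2.6 and 2.34 CPM to 0, 0.0332 and 0 CPM (ratio of 159.5 with interval 28.2 to 6345).

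Metabolic and growth lists shifted by less than 2-fold. Cytosolic ribosomal proteins had a median of -0.32, with 56 of 80 passing as lower and 0 called, and respiratory chain genes had a median of -0.32 with 2 of 76 called lower. Both moved with the third *KD2* culture: the medians per *KD2* culture were -0.43, -0.49 and -0.10 for ribosomal proteins and -0.43, -0.43 and -0.15 for the respiratory chain. *Slc25a5*, the exchanger of ADP and ATP in the mitochondrial membrane and a gene of the X chromosome, had 575, 569 and 601 CPM in *WT* and 228, 224 and 242 CPM in *KD2* (-1.33 ± 0.05); 33.8% of its windows occur in other genes.

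Cell cycle lists had few calls. Of 48 DNA replication genes 2 were called lower (median -0.17), namely *Pola1* on the X chromosome, with 209.9, 197 and 204 CPM in *WT* and 98.7, 103 and 75.8 CPM in *KD2* (-1.14 ± 0.09), and *Gmnn* on chromosome 13, with 40.8, 46.4 and 48.9 CPM in *WT* and 20.8, 21.6 and 24.8 CPM in *KD2* (-1.02 ± 0.08). Without the third *KD2* culture *Pola1* was just under the limit for a call (-0.99), and *Gmnn* fell under it in 6 of the alternatives. Of 42 genes of mitosis and cytokinesis 0 were called, while 15 passed as higher and 9 as lower (median 0.10). Among 24 cholesterol synthesis genes 0 were called, while 12 passed as lower and 6 as higher (median -0.27). Glycolysis and hypoxia genes had 5 of 30 called higher (16.7%) and 2 lower (6.67%), near the 14.5% and 6.71% over all genes tested. Of these, *Eno2*, an enolase, had 1.07, 1.16 and 0.732 CPM in *WT* and 7.59, 8.44 and 8.45 CPM in *KD2* (3.03 ± 0.19). *Car9* had 3.33, 5.04 and 4.24 CPM in *WT* and 15.1, 15.7 and 17.1 CPM in *KD2* (1.91 ± 0.13). *Pfkp*, a phosphofructokinase, had 171, 195 and 179.9 CPM in *WT* and 61.5, 62.1 and 65.6 CPM in *KD2* (-1.53 ± 0.06). The 30 genes of fatty acid and triglyceride synthesis had 2 called higher and 1 lower, with a median of -0.07. Among 28 targets of Trp53, 3 were called each way (10.7%). The death receptor *Fas* read 0.665, 0.959 and 1.12 CPM in *WT* and 7.79, 8.98 and 7.37 CPM in *KD2* (3.13 ± 0.18). *Gadd45a*, a growth arrest gene, had 147, 113 and 135 CPM in *WT* and 46.3, 45.6 and 51.1 CPM in *KD2* (-1.47 ± 0.09). Of 11 imprinted genes tested 4 were called higher and 1 lower.

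The falls were spread unevenly over chromosomes. Chromosome 13 had a median log2 fold change of -0.66, with 140 of its 594 genes called lower (23.6%) and 33 higher; chromosome X had -0.63, with 94 of 450 called lower and 26 higher; and chromosome 14 had -0.47, with 72 of 498 called lower and 36 higher. Of the genes tested there, 80.0%, 83.6% and 71.7% had a value below 0. The other chromosomes had medians from -0.20 to 0.28. All 3 *KD2* cultures showed the shift: -0.60, -0.56 and -0.74 for chromosome 13, -0.57, -0.56 and -0.72 for X, and -0.42, -0.44 and -0.49 for chromosome 14.

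The shift ran along the length of these chromosomes. In windows of about 50 neighbouring genes, 11 of 12 on chromosome 13, 10 of 10 on chromosome 14 and 9 of 9 on X had a median below -0.3; the windows of X ranged from -0.73 to -0.54. Called genes of this report that lie there include *Id4*, *Inhba*, *Nkd2*, *Pfkp* and *Tgfbi* on chromosome 13, *Abcc4*, *Plau* and *Ptprg* on chromosome 14, and *Bcor*, *Fgf13*, *Itm2a*, *Slc25a5* and *Tmem47* on X. DNA copy number was not analysed here.

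**Figure D5:**
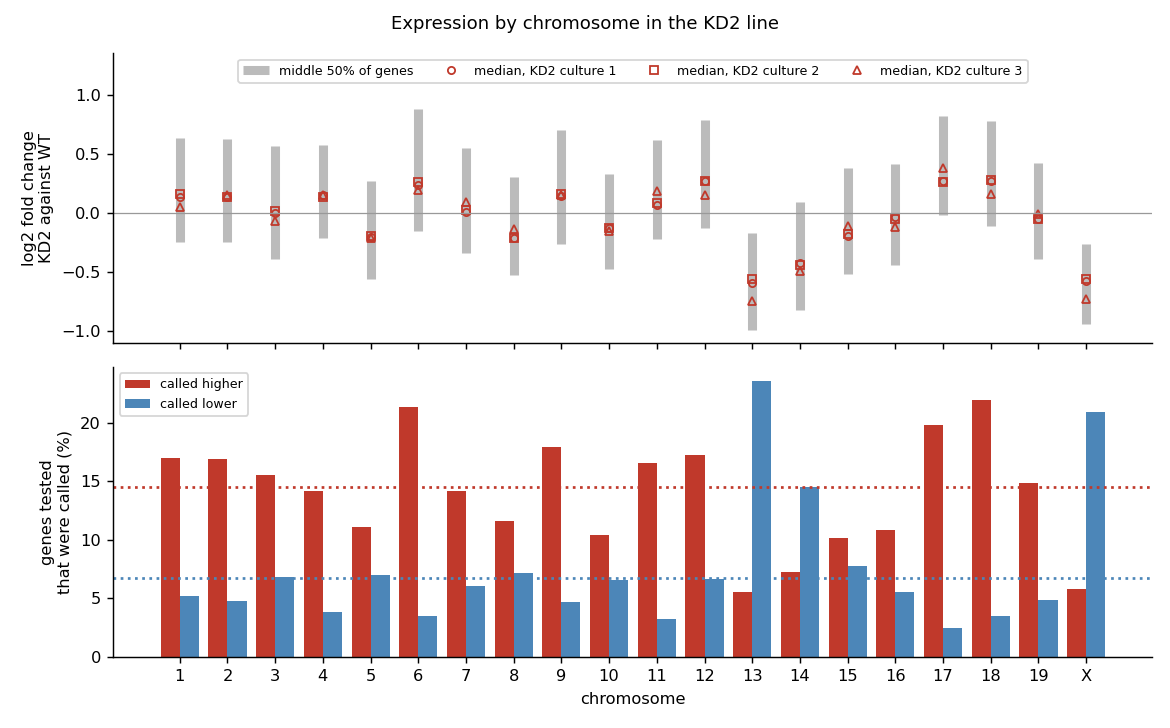
Top, middle 50% of log2 fold changes of the genes on each chromosome (grey bars) and the median in each *KD2* culture (red symbols); bottom, percent of genes tested on each chromosome called higher (red) and lower (blue), with dotted lines at 14.5% and 6.71%, the shares over all chromosomes. Chromosomes 13, 14 and X lie below the others in all 3 cultures.

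The 12 largest falls under the naming rule left a mean under 1 CPM in *KD2*. *Tmem47*, a membrane protein of junctions, had 15.4, 15.3 and 15.4 CPM in *WT* and 0, 0 and 0.0491 CPM in *KD2* (-9.7 ± 0.34, ratio of 1154 with interval 207 to 45608). *Tfap2b*, a transcription factor, had 21, 23 and 21 CPM in *WT* and 0, 0 and 0.147 CPM in *KD2* (-8.91 ± 0.30, ratio of 546 with interval 186 to 2649), and *Ptprg*, a receptor phosphatase, had 25.5, 25.8 and 23.9 CPM in *WT* and 0, 0.0997 and 0.147 CPM in *KD2* (-8.21 ± 0.21, ratio of 315 with interval 144 to 859.5). *Mal* read 38.4, 54.8 and 49.7 CPM in *WT* and 0.363, 0.532 and 0.295 CPM in *KD2* (-6.84 ± 0.19), a protein of apical membrane transport, while *Ctsz*, a lysosomal cathepsin, gave 40.02, 38.3 and 42 CPM in *WT* and 0.484, 0.598 and 0.491 CPM in *KD2* (-6.22 ± 0.12). *Sdk2*, *Dclk2*, *Prrg1*, *Rtl3* and *Zfp518b* completed the 12 with *Sostdc1* and *Itm2a*. Of these, *Sdk2* had a ratio of 260.1 with interval 101 to 957, *Dclk2* a ratio of 154 with interval 52.4 to 750.5 and *Zfp518b* a ratio of 151 with interval 26.7 to 6026. *Ptprg*, *Mal* and *Ctsz* were not called lower in *KD1* (0.45 ± 0.09, 0.19 ± 0.10 and -0.06 ± 0.07), and *KD2* differed from *KD1* by -8.66 ± 0.20, -7.03 ± 0.19 and -6.16 ± 0.12, each passing.

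On the side of the rises, *Ebf1*, a factor of B cells and of stromal progenitors, had 0.409, 0.24 and 0.0488 CPM in *WT* and 20.1, 20.3 and 17.1 CPM in *KD2* (6.35 ± 0.23). *Olfml2b*, a secreted olfactomedin, gave 0.0512, 0.0400 and 0.146 CPM in *WT* and 12.2, 12 and 14.5 CPM in *KD2* (7.29 ± 0.28, ratio of 166 with interval 70.7 to 511), and *Ccn5*, a matrix protein that opposes other CCN members, gave 0.461, 0.759 and 0.878 CPM in *WT* and 44.1, 43.4 and 53.5 CPM in *KD2* (6.04 ± 0.16). *Cacna1g*, a T-type calcium channel, had 0.768, 0.719 and 0.732 CPM in *WT* and 44.8, 45.2 and 48.6 CPM in *KD2* (5.96 ± 0.13). Without the third *KD2* culture their log2 fold changes were 6.45, 7.23, 5.97 and 5.95.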

How the data were processed

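Messenger RNA of 9 HC11 cultures, 3 for each of the lines *WT*, *KD1* and *KD2*, was measured, with lines taken from the sample labels. The deposited table holds raw read counts per gene that the authors had not normalized. Per the labels and the methods, fastp, HISAT2 on GRCm38 and featureCounts had been used, and DESeq2 for testing; versions and strand setting are not given in the sources used here. No batch is labelled.

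Counts were tested with edgeR 4.0.16 in R 4.3.3 (quasi-likelihood test, TMM scaling, its expression filter, 1 fit of all 9 cultures, no block, Benjamini-Hochberg adjustment over 15253 genes). CPM are counts per 1000000 of the TMM-adjusted library size. The script was tested on simulated data. A floor of 3 counts a library was used, which like every SE covers these cultures only, and nothing states that they were separate in origin, so p-values measure the spread between these samples. No 2 libraries of a line agreed within counting noise (chi-square per degree of freedom 1.37 to 22.1). Positions, length and GC content came from GENCODE on GRCm38 and matched 53702 of 55228 gene names.

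Genes were named by a rule: among protein-coding genes called with and without the third *KD2* culture, with an average log2 CPM above 2 and no overlap between groups, the 12 largest rises and 12 largest falls, and the 5 largest gains and 5 largest losses per length; up to 3 called members each way of every list; and *Vangl2*, *Stat5a*, *Stat5b*, *Irf1*, *Irf8*, *Ezh2*, *Suz12*, *Ccnd1* and *Elf5*. Other list members were named after their values were seen. Some genes are not reported here. The lists and this comparison were chosen with earlier results of these data known. For 170 named genes, shared 50-base windows were counted over GENCODE transcripts. Alternatives were DESeq2 1.42.0, other scalings, filters and thresholds, a GC offset (lowess, span 0.3), the replicate block, and each culture left out in turn.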

Additional observations from a re-analysis of the deposited data

Results flagged for a closer look

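Among the genes of the largest changes, 6 were called in *KD2* and in *KD1* against the same *WT* cultures but in opposite directions, and the difference between the edited lines passed edgeR's quasi-likelihood test for each. The log2 fold change of *KD2* minus that of *KD1* was 8.94 for *Ccn5*, 8.76 for *Col5a3*, 8.82 for *Pdgfrb*, 5.90 for *Vim* and 4.26 for *Fn1*, all higher in *KD2*, and -9.06 for *Zfp518b*, which was lower in *KD2*. The naming rule required all 3 *KD2* cultures to lie on one side of *WT* in these genes, so that is not a further result. Groups of 3 cultures are too small for a test of single outlying samples.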

How the results depend on the processing

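The counts of called genes moved by over 1.5 times under 2 alternatives. With at least 10 counts in every culture, 1173 genes were higher and 525 lower, from a smaller set of genes tested, and under glmTreat at a 2-fold change 1395 were higher and 595 lower. With each culture left out in turn the counts ranged from 2229 to 2394 higher and from 984 to 1055 lower. Scaling by library size alone gave 2477 higher and 852 lower, moved the median of all genes to 0.12, and made 74.4% of calls higher in place of 68.3%. The GC offset gave 2200 higher and 1040 lower, and together with leaving out the third *KD2* culture, an alternative chosen after seeing the data, 2315 and 1077.

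The replicate numbers did not pair the cultures, since same-numbered *WT* and *KD2* cultures deviated together with correlations of 0.03, -0.07 and 0.08; with the replicate block 2206 genes were higher and 1021 lower, and 0 of the 164 called genes of the naming rule lost the call under the replicate block.

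With at least 10 counts in every culture, the median log2 fold change, antiviral effectors, was 1.52, that of interferon-induced GTPases 4.10, of MHC class I presentation 1.02, of STAT5 and milk 0.23, of DNA replication -0.10, of mitosis and cytokinesis 0.17 and of Polycomb complexes -0.00072; fewer members were then tested. The Polycomb median was -0.061 with median-of-ratios size factors and -0.12 with the GC offset. With single cultures left out, the medians ranged from 2.34 to 2.50 for antiviral effectors, 4.58 to 5.41 for GTPases, 0.12 to 0.24 for STAT5 and milk, -0.11 to -0.051 for Polycomb complexes, 0.049 to 0.15 for mitosis and cytokinesis and, turning sign, -0.078 to 0.050 for planar cell polarity.

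Of the 170 genes of the naming rule, 165 kept their direction and their side of the adjusted p threshold under every alternative run. With the 2-fold limit as well, 151 of 164 called genes were called in every one and 13 were not, among them *Pola1* (-0.99 without the third *KD2* culture), *Gmnn*, *Timp1*, *Boc* and, without the first *WT* culture, *Socs3* (0.98). *Vangl2* ranged from -0.038 to 0.13 with single cultures left out, turning sign without the first *WT* culture, and *Stat5b* turned sign with library size alone (0.056) and with at least 10 counts (0.017); neither passed anywhere among these. *Ezh2* lost its pass in 5 alternatives (adjusted p 0.067 to 0.136), *Ccnd1* with library size alone and *Hoxc5* in DESeq2. The causes were not tested. Depth limits low genes: 3 counts stood for 0.0997 to 0.154 CPM in the 6 libraries.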
